A study of Oryza sativa Japonica Group with 8 samples.

Results

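SALT is a small mannose-binding lectin of rice, first known as a protein that accumulates when seedlings meet salt. It belongs to the jacalin-related lectins, proteins that fold into a beta-prism and bind sugars, and many grasses make such proteins under stress. In rice its transcript is known to rise with salt, drought, abscisic acid and jasmonate, and it is found mainly in roots and leaf sheaths. The gene was taken by its identifier, LOC_Os01g24710, from the deposited tables, as 1 gene of 55801. In the reference table of names its record carries the synonym salT and lies at the matching place on the same chromosome.

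The values come from RNA-seq of leaves of rice seedlings (Oryza sativa Japonica Group, cultivar Nipponbare), with 2 libraries from seedlings given carbon dots (CD) and 2 from control seedlings (CK). Carbon dots are carbon nanoparticles, and the CD seeds were sown on half-strength MS, a mineral salt medium, with 0.56 mg/ml of them. The CK seeds were sown on the same medium without them, so both groups share the cultivar, the medium and the growth chamber. The age label reads 2 weeks and the protocol gives 3 weeks of growth, and the sources used here do not settle which holds. Nothing in the labels says that replicates are separate plants or cultures, so p-values here reflect library-to-library spread that may be technical.

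SALT lies on the minus strand of chromosome 1 from 13903153 to 13904729 in the coordinates of the authors' count table, whose genome build is not given in the sources used here. Its exon records merge into 3 blocks of 562, 679 and 156 bases, separated by gaps of 97 and 83 bases. The summed exon length is 1397 bases, which is the length behind the deposited TPM values. No other gene in the table overlaps it, and the nearest one ends 2423 bases away.

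Total counts ranged from 49281927 to 80317398 per library. Over the 26271 genes tested, the number called by edgeR at an adjusted p of 0.05 was 0 (0% of those tested), with 2286 at an unadjusted p under 0.05 (8.7%), and DESeq2 called 513 (1.95%). The groups did not overlap for 38.4% of the genes tested, with the treated libraries on the higher side in 17.8% and on the lower side in 20.7%. Total count scaling moved the median gene from 0.01 to 0.11 on the log2 scale.

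SALT was more abundant in both carbon dot libraries than in both controls. CD replicates 1 and 2 had 81429 and 17357 counts of it, and CK replicates 1 and 2 had 14386 and 6371. Scaled to library size the treated leaves gave 1032 and 345.5 CPM (counts scaled to TMM library sizes), and the control leaves 185.1 and 109.1 CPM. CD replicate 1 stood far above the other 3 libraries, and the groups did not overlap. The deposited TPM values, which are scaled by gene length, gave the same order, with 1418 and 463.2 TPM in the CD replicates and 231.3 and 136.2 TPM in the CK replicates.

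**Figure D1:**
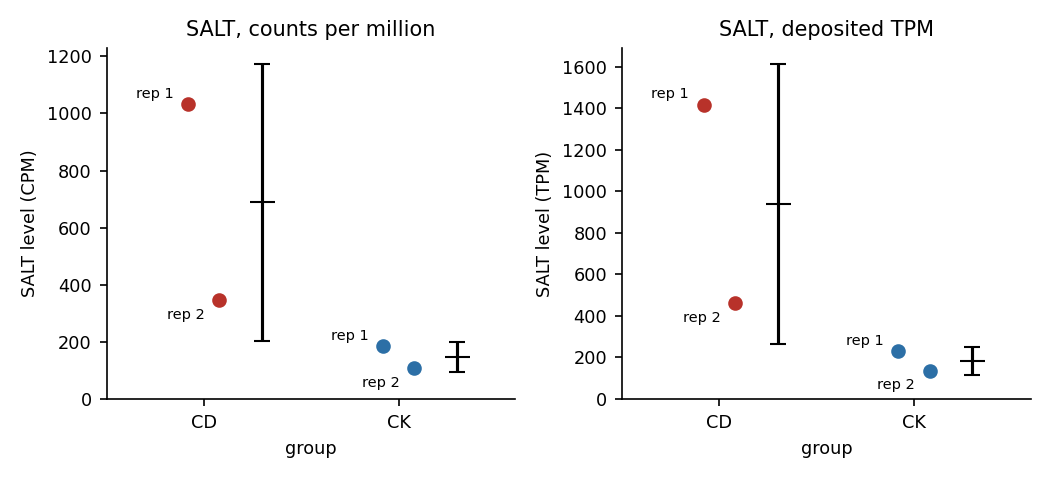
Level of SALT in each library as CPM (left) and as deposited TPM (right), with the points for the replicates and the black bar for the mean ± SD (n = 2 per group). The 2 CD libraries, at 1032 and 345.5 CPM, lie above the 2 CK libraries, at 185.1 and 109.1 CPM, and the CD replicates lie far apart.

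SALT averaged 689 ± 486 CPM in treated leaves, against 147 ± 53.8 CPM in control leaves (SD, n = 2). The SD was 70.5% of the mean with carbon dots and 36.5% of the mean in the control. By edgeR's quasi-likelihood test the log2 fold change of SALT was 2.23 ± 0.59 (SE), a 4.68-fold difference, with an unadjusted p of 0.0127 and a Benjamini-Hochberg adjusted p of 0.47 over all genes. SALT therefore did not pass the edgeR test over the whole table, in which 706 genes had a lower p. DESeq2 gave a log2 fold change of 2.24 and called SALT, with an adjusted p of 0.00273. A two-sided exact permutation test on the 4 log2 CPM values gave p = 0.333, the smallest p that 2 libraries against 2 allow.

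The size of the difference depended on CD replicate 1. Without it the log2 fold change was 1.23, and leaving out CD replicate 2 instead gave 2.81. Leaving out a control library gave 2.66 without CK replicate 1 and 1.90 without CK replicate 2, where the unadjusted p was 0.0602 by edgeR. None of these 4 fits passed an adjusted p of 0.05.

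The order of the levels can be read against the spread within groups. CD replicate 1 was 2.99-fold above CD replicate 2, which was 1.87-fold above CK replicate 1, which was 1.70-fold above CK replicate 2 (ratios of CPM). On the log2 scale the step between the groups, from CK replicate 1 to CD replicate 2, was 0.90. That step was smaller than the difference between the CD replicates (1.58) and larger than the difference between the CK replicates (0.76). Counting error was small beside these steps: the share of all counts held by SALT was 0.0352% in CD replicate 2 (95% exact binomial interval 0.0347% to 0.0358%) and 0.0179% in CK replicate 1 (0.0176% to 0.0182%). These intervals cover counting error only.

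SALT varied more between replicates than most genes of like abundance. Among the 1000 genes nearest to it in mean log2 CPM, the median absolute difference between the CD replicates was 0.28, and 1.6% differed by as much as SALT did. Between the CK replicates the median was 0.16, and 3.7% of those genes differed by as much as SALT.

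By TPM, SALT was an abundant transcript in every library. It was the gene of rank 34 of 55801 in CD replicate 1 and of rank 198 in CD replicate 2. In the controls it stood at rank 627 in CK replicate 1 and rank 1229 in CK replicate 2. Its TPM was 190.7 times the median of the genes with counts in CD replicate 1 and 18.9 times that median in CK replicate 2.

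Among genes of high level the fold change of SALT stood at the edge. Of the 1946 genes tested with a mean of at least 100 TPM, a limit chosen with its values known, 0 had a larger log2 fold change than SALT by edgeR. Its rank among them by this measure fell to 7 when CD replicate 1 was left out, to 2 when CD replicate 2 or CK replicate 1 was, and to 8 when CK replicate 2 was. Over all levels, 169 genes (0.643% of those tested) had a larger log2 fold change.

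**Figure D2:**
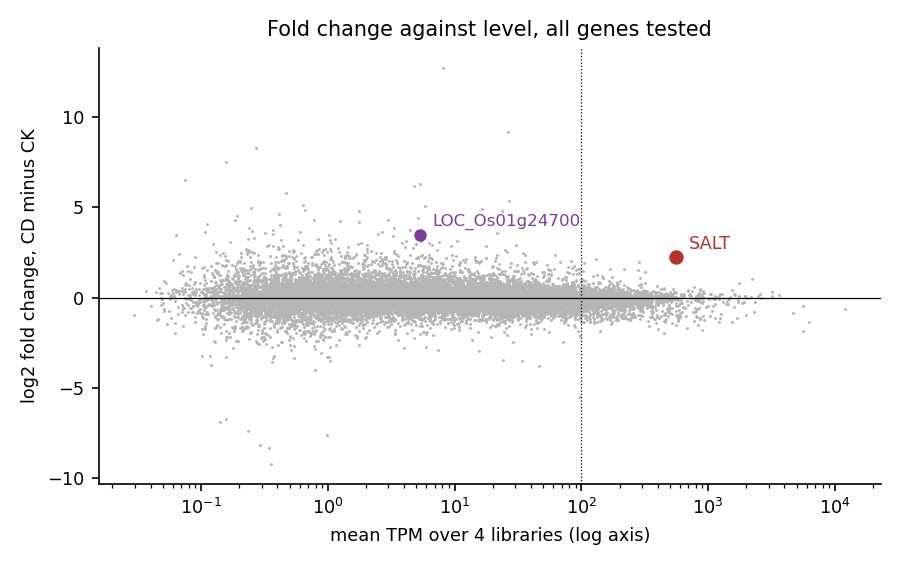
Log2 fold change (CD minus CK, edgeR) against mean TPM over the 4 libraries on a log axis, with 1 grey point per gene tested, SALT in red and LOC_Os01g24700, the gene beside it, in purple. SALT, at 2.23, is the highest point to the right of the dotted line at 100 TPM.

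Of the genes tested around SALT, 1 beside it had a larger log2 fold change, and the others lay between -1.85 and 0.95. The count table has 68 other genes within 200 kb on either side, of which 33 had 0 counts in all 4 libraries. Another 10 had at most 10 counts in any library and did not pass the filter on low counts, which left 25 genes tested. These 25 had a median log2 fold change of 0.07, against 0.01 over all genes tested, with 14 above 0 (51% of all genes tested were) and 11 below 0. LOC_Os01g24700 was the 1 with a larger log2 fold change than SALT.

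At an unadjusted p under 0.05 there were 3 tested neighbours higher with carbon dots (3.33% of all genes tested were) and 3 lower (5.37% of all genes tested were). The 6 in all are 24.0% of the 25 neighbours tested, against the 8.7% of all genes. Without CK replicate 1 there were 3 (12%, against 3.27% of all genes tested in that fit), and without CK replicate 2 there were 2 (8%, against 5.35%). The groups did not overlap for 13 of the 25 (52.0%, against 38.4% of all genes tested), 8 of them higher and 5 lower with carbon dots. At an adjusted p of 0.05 edgeR called 0 of the 25 neighbours. DESeq2 called 1 higher, LOC_Os01g24700 (4% of the 25, against 0.773% of all genes tested). These shares still count the genes to which DESeq2 gave no adjusted p, 4 of the 25 and 2547 of all genes tested.

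LOC_Os01g24700 lies on the same strand as SALT, on chromosome 1 from 13899523 to 13900729, and begins 2423 bases beyond the 3′ end of SALT. In the reference table the gene at the matching place is a long non-coding RNA. CD replicates 1 and 2 had 392 and 61 counts of it, and CK replicates 1 and 2 had 14 and 22. As deposited TPM these are 15.8 and 3.77 with carbon dots, and 0.52 and 1.09 in the control. Both CD libraries lay above both CK libraries, and CD replicate 1 was again far above the rest.

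The log2 fold change of LOC_Os01g24700 was 3.49 ± 0.84 by edgeR (adjusted p = 0.46), and its adjusted p by DESeq2 was 0.00147. It was 2.14 when CD replicate 1 was left out and 4.17 when CD replicate 2 was. Its counts were 0.481% and 0.351% of those of SALT in the CD replicates, and 0.0973% and 0.345% in the CK replicates. The share was lowest in CK replicate 1, and in CK replicate 2 it was close to that in CD replicate 2. Whether the reads of both genes come from 1 transcript was not tested.

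On its other side, SALT is followed by LOC_Os01g24720, which begins 7099 bases away and had 6.30 and 5.14 TPM with carbon dots and 5.32 and 5.60 TPM in control leaves. Its log2 fold change was -0.05 ± 0.35 and turned to 0.06 with total count scaling. The gene after it, LOC_Os01g24730, had 4 counts in CK replicate 2 and 0 in the other 3 libraries.

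LOC_Os01g24690, which ends 4888 bases before SALT, was the most abundant neighbour in the control by TPM. It had 244.8 and 217.6 TPM in the CD replicates and 246.3 and 236.6 TPM in the CK replicates, with a log2 fold change of -0.18 ± 0.15. In the control SALT stood below this neighbour in both replicates, and with carbon dots it stood above it in both. LOC_Os01g24680, 9859 bases from SALT, had 113.2 and 147.4 TPM with carbon dots and 87.3 and 91.1 TPM in control leaves. Its log2 fold change was 0.43 ± 0.20 (0.62 without CD replicate 1, 0.20 without CD replicate 2), with an unadjusted p of 0.0842.

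The other neighbours at an unadjusted p under 0.05 had smaller differences or low levels. LOC_Os01g24490 and LOC_Os01g24980 were higher with carbon dots, with log2 fold changes of 0.94 ± 0.27 and 0.67 ± 0.19. LOC_Os01g24440 and LOC_Os01g24764 were lower, with -0.50 ± 0.17 and -0.61 ± 0.17. LOC_Os01g24790 had -1.85 ± 0.64 (-0.98 without CK replicate 2), from 26 and 12 counts with carbon dots and 44 and 89 in the control. All 5 had adjusted p-values between 0.474 and 0.528 by edgeR.

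Of the other abundant neighbours, LOC_Os01g24880, LOC_Os01g24750 and LOC_Os01g25010 had log2 fold changes of -0.13 ± 0.17, 0.28 ± 0.14 and -0.38 ± 0.27. That of LOC_Os01g24880 turned to 0.02 without CD replicate 2, and that of LOC_Os01g25010 lay between -0.64 and -0.07 when 1 library was left out, nearest to 0 without CK replicate 1. LOC_Os01g24940, whose place matches the reference gene PARP2-A, an enzyme that adds ADP-ribose chains to proteins at DNA breaks, is the only neighbour given a functional name there and was named for that. It averaged 2.99 ± 0.47 TPM in treated leaves, against 2.99 ± 0.69 TPM (SD, n = 2).

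**Figure D3:**
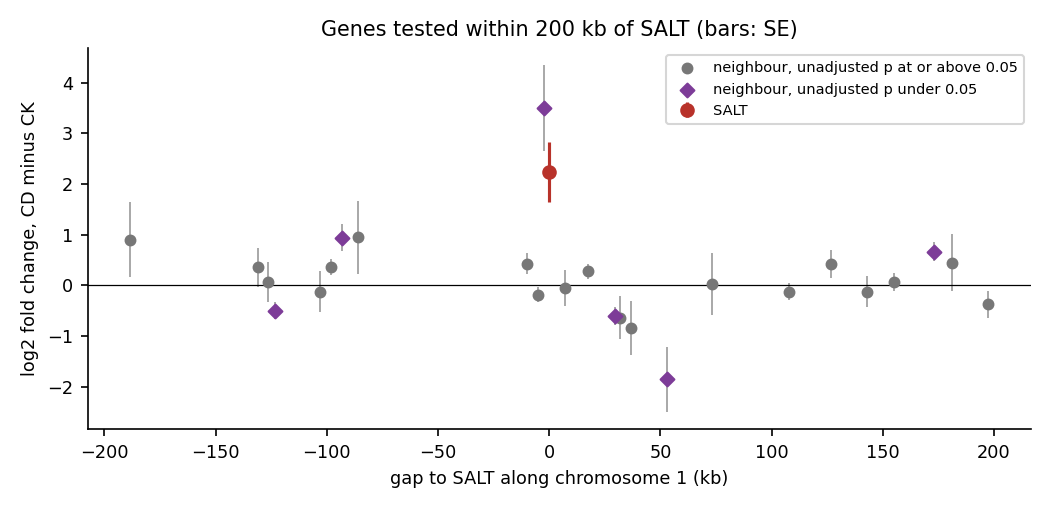
Log2 fold change (CD minus CK, edgeR, bars show the SE) of SALT and of the 25 genes tested within 200 kb, against the gap to SALT along chromosome 1 in kb, with negative values toward lower coordinates. SALT, at 2.23, and LOC_Os01g24700, at 3.49, stand above the other neighbours, which lie between -1.85 and 0.95.

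Among genes of at least moderate level, the 5 whose levels followed those of SALT most closely lay outside the 200 kb window. Likeness was measured as the distance between log2 CPM values over the 4 libraries, each gene centred on its own mean, among 13503 other genes with a mean of at least 10 CPM over the 4 libraries. LOC_Os01g24700 was below that limit and was not among the genes compared. The median distance was 2.46, and the 5 nearest genes lay between 0.50 and 0.62. LOC_Os11g02520 was the nearest, with 74.9 and 36.2 CPM in treated leaves and 16.1 and 12.4 CPM in control leaves. LOC_Os01g58290 was next, with 84.3 and 37.4 CPM against 15.8 and 14.1 CPM.

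The other 3 were LOC_Os06g38450, LOC_Os03g10210 and LOC_Os08g07690, which averaged under 10 CPM in the control and met the limit through the treated libraries. The log2 fold changes of all 5 lay between 1.62 and 2.25, and in all 5 both CD libraries lay above both CK libraries and CD replicate 1 was the highest, as the choice by likeness favours. The sources used here give no name for these 5. With 4 libraries such a choice is loose: 89 genes had a Pearson correlation with SALT of at least 0.99 over the 4 libraries, and the 5 genes highest by that correlation included 0 of the 5 nearest by distance. The limit on level also decided the choice: with all 26270 other tested genes compared, an alternative added after seeing the data, 0 of the 5 were kept. There the fifth of them stood at rank 53, and LOC_Os01g24700, at a distance of 1.61, at rank 1052.

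**Figure D4:**
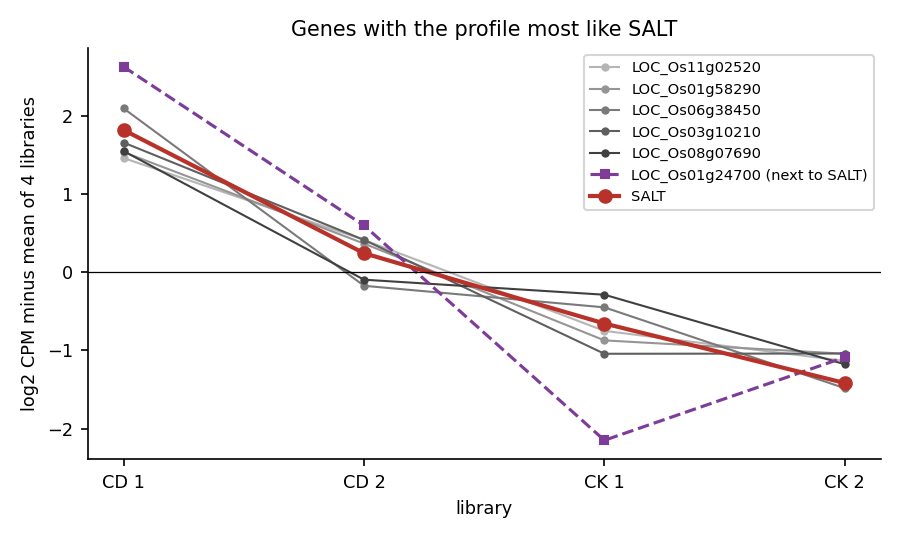
Log2 CPM minus the mean of the 4 libraries for SALT (red), its 5 most like genes (grey) and LOC_Os01g24700 (dashed purple), with 1 position per library and lines that only join the values of 1 gene. All 7 are highest in CD replicate 1, and LOC_Os01g24700 is lowest in CK replicate 1 where SALT is lowest in CK replicate 2.

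Jasmonate, one of the hormones known to induce SALT, is made in plastids and peroxisomes from fatty acids, and it acts by removing JAZ repressors through the receptor COI1. The 22 listed genes of jasmonate synthesis and signalling were all tested. Their median log2 fold change was 0.05 (0.01 over all genes tested), with 14 above 0 (51% of all genes tested were). Of the 22, 2 had an unadjusted p under 0.05, both higher with carbon dots (9.09% of the list). Over all genes tested the share was 8.7% in either direction and 3.33% higher. The groups did not overlap for 10 of the 22 (45.5%, against 38.4%). At an adjusted p of 0.05, edgeR and DESeq2 each called 0 of them.

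Both genes at an unadjusted p under 0.05 encode enzymes of the first steps of synthesis. The other listed synthesis genes, given here outside the rule for named genes, had log2 fold changes near 0 or below it. AOS1 (LOC_Os03g55800) had 0.015 ± 0.271, AOC (LOC_Os03g32314) -0.151 ± 0.191 and OPR7 (LOC_Os08g35740) 0.075 ± 0.138. LOC_Os12g37260, entered as a lipoxygenase gene with no matched symbol, had 0.001 ± 0.211. LOX9 (LOC_Os08g39840), a lipoxygenase, had 45.2 CPM in the first treated library and 9.00 CPM in the other, where the control libraries had 6.77 and 6.30 CPM. Its log2 fold change was 2.06 ± 0.74, or 0.46 without CD replicate 1. AOS2 (LOC_Os03g12500), an allene oxide synthase, had 106.6 and 100.2 CPM against 61.6 and 79.6 CPM, and its difference was 0.55 ± 0.18 on the log2 scale. AOS2 was at a like level in both CD replicates, where SALT differed 2.99-fold.

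The most abundant jasmonate genes with a matched symbol had smaller log2 fold changes than LOX9 and AOS2. The receptor gene COI1B (LOC_Os05g37690) had 0.14 ± 0.15 on the log2 scale. The repressor gene JAZ7 (LOC_Os07g42370) had -0.02 ± 0.19. This value turned to 0.09 with total count scaling, to 0.11 with TPM, to 0.02 without CD replicate 2 and to 0.12 without CK replicate 1. The repressor gene JAZ6 (LOC_Os03g28940) had 0.15 ± 0.30, or -0.33 without CD replicate 1.

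The salt, drought and abscisic acid list holds 27 genes, of which 26 were tested. Their median log2 fold change was 0.18 (0.01 over all genes tested), with 17 above 0 (51% of all genes tested were). Here 3 had an unadjusted p under 0.05, all higher with carbon dots (11.5%). Over all genes tested the share was 8.7% in either direction and 3.33% higher. The groups did not overlap for 8 (30.8%, against 38.4%). DESeq2 called 2 members, both higher (7.69%), and edgeR 0. Over all genes tested DESeq2 called 1.95% in either direction and 0.773% higher. Without CD replicate 1 the median turned to -0.11.

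HKT2;1 (LOC_Os06g48810), a transporter that carries sodium into roots, was the member of these 3 with a matched symbol. It had 75.9 and 57.6 CPM in treated leaves, where control leaves had 21.6 and 12.3 CPM. Its difference was 1.98 ± 0.32 on the log2 scale, with an adjusted p of 0.46 by edgeR and of 2.06e-05 by DESeq2. Its CD replicates were closer to each other than those of SALT, and its log2 fold change was 1.76 without CD replicate 1. The others of these 3 have no matched symbol. LOC_Os11g03300 had 1.256 ± 0.297 on the log2 scale, with an adjusted p of 0.46 by edgeR and of 0.01855 by DESeq2. LOC_Os07g05940 had 0.814 ± 0.311, with an adjusted p of 0.345 by DESeq2. The other listed HKT gene, HKT1;5 (LOC_Os01g20160), had -0.142 ± 0.325. The dehydrin gene DHN1 (LOC_Os02g44870) had -0.21 ± 0.28, which turned to 0.04 without CD replicate 2 and to 0.07 without CK replicate 2. The stress transcription factor gene NAC6 (LOC_Os01g66120) had 0.41 ± 0.38, or -0.25 without CD replicate 1. LOC_Os12g14440, a second gene entered as a jacalin-related lectin and one whose symbol could not be matched, had 65 and 19 counts in treated leaves and 12 and 2 in control leaves, which is 0.82 CPM or less in every library. Like SALT it was higher in both treated libraries and highest in CD replicate 1, with a log2 fold change of 2.61 ± 0.84 and an unadjusted p of 0.0261 by edgeR (adjusted p = 0.514). DESeq2 gave it no adjusted p.

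**Figure D5:**
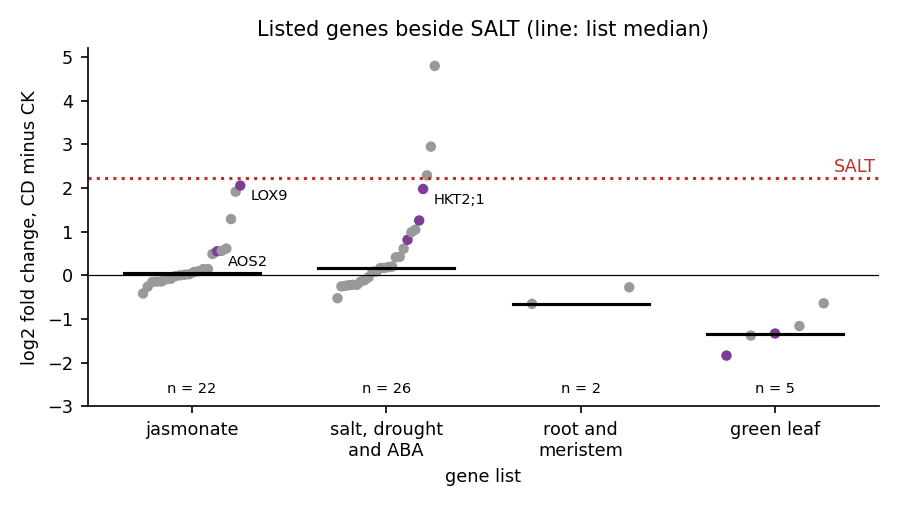
Log2 fold change (CD minus CK, edgeR) of the tested members of 4 gene lists, with 1 point per gene, purple where the unadjusted p was under 0.05, a black line at the list median and a dotted red line at SALT (2.23). OSH1, at -9.21 with 0 counts in both CD libraries, lies outside the axis and is not drawn. The median line of the root and meristem list (-0.65) includes OSH1, while the n printed there does not. Most points of the jasmonate list and of the salt, drought and ABA list lie near 0.

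SALT is known from roots and sheaths, so genes of other organs were read beside it. Of the 4 listed root and meristem genes, the silicon transporter gene LSI2 (LOC_Os03g01700), a root marker, had 0 counts in all 4 libraries. LSI1 (LOC_Os02g51110), another silicon transporter gene of roots, had 17.3 and 17.2 CPM in treated leaves, against 20.6 and 21.1 CPM. The root transporter gene NRAMP5 (LOC_Os07g15370) was at 12.6 and 20.5 CPM against 20.3 and 31.7 CPM. No gene of the leaf sheath was listed, and whether any library held root or sheath tissue was not tested. The median log2 fold change of the 3 tested genes of this list was -0.65, against 0.01 over all genes tested. OSH1 (LOC_Os03g51690), a gene of the shoot meristem, was counted 117 and 42 times in the control libraries and 0 times in each treated one. By edgeR its unadjusted p was 0.00138 (adjusted p = 0.46), and its adjusted p by DESeq2 was 9.85e-05. The groups did not overlap for 2 of the 3 tested genes, both lower with carbon dots (66.7%, against 38.4% of all genes tested in either direction and 20.7% lower).

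The green leaf genes were abundant in every library. The Rubisco small subunit gene RBCS LOC_Os12g19470 had 903.3 and 868.8 CPM in treated leaves, against 1968 and 2489 CPM. Its copy LOC_Os12g17600 was at 2004 and 1213 CPM against 3401 and 8081 CPM, and reads of such near-identical copies may have been split or lost by the counting. The Rubisco activase gene RCA (LOC_Os11g47970) was at 9910 and 4750 CPM against 9676 and 13150 CPM. All 5 listed leaf genes were below 0 in log2 fold change (median -1.33). The median over all genes tested was 0.01, and 51% of all genes tested were above 0. Over all genes tested, 8.7% had an unadjusted p under 0.05 in either direction, and 5.37% had it and were lower. In this list 2 had it, both lower (40.0%). These were the 2 RBCS genes, which DESeq2 also called, with adjusted p-values of 0.0082 for LOC_Os12g17600 and 1.45e-05 for LOC_Os12g19470 (40.0% of the list, against 1.18% of all genes tested that it called lower). For the other 3 the groups overlapped. Among them the chlorophyll-binding protein gene CAB2R (LOC_Os01g41710) had 224.9 and 830.7 CPM in treated leaves, against 1749 and 609.1 CPM, so CD replicate 2 lay above CK replicate 2. LOC_Os09g17740, entered as another such gene, had the same order of libraries. Neither was chosen by the rule for named genes. The part of these tissue genes in the level of SALT was not tested, and in whole leaves more cells with SALT transcript and more transcript per cell cannot be told apart.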

How the data were processed

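The authors deposited raw counts for 4 RNA-seq libraries in featureCounts layout, not normalized, per the file headers. Their deposited TPM equalled counts divided by gene length and scaled to a common total, within 3.64e-06. The submitters' processing notes list featureCounts 1.6.4, HISAT2 2.0.5, fastp 0.21.0 and FastQC 0.11.5 among their tools, without saying what each was used for. Strand use in counting is not given in the sources used here. The 4 bisulfite samples were not analysed here.

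All 26271 genes kept by filterByExpr were fitted together with edgeR 4.0.16 in R 4.3.3 (TMM, quasi-likelihood F test, Benjamini-Hochberg adjustment, group only), and only the genes of this account are printed. The standard error is the log2 fold change divided by the square root of F. The alternatives were RLE and total count scaling, no filter, 1 CPM in 2 libraries, DESeq2 1.42.0, limma 3.58.1 with voom or on TPM with a pseudocount of 1 or 0.1, the replicate number as a block, leaving out a library or the 20 genes with most counts, and windows of 100 and 400 kb. A crossed pairing, and likeness with no limit on level, were added after seeing the data. The fit was also run on counts simulated with the dispersions it had estimated from these data, which cannot show its error rate on the real libraries.

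SALT was chosen, and the lists were written, with earlier results of these data known. Listed symbols were checked in the reference table of names (assembly ASM3414082v1, used for names only) by symbol, chromosome, place and span: 18 of 22 jasmonate genes, 13 of 27 salt, drought and abscisic acid genes, 4 of 5 leaf genes, all 4 root and meristem genes and 1 of 2 lectins matched. Neighbours were matched by distance to SALT and overlap of span, and 28 of 68 had a match. Named genes were the 2 neighbours nearest on each side, the 5 neighbours with the highest mean TPM, neighbours at an unadjusted p under 0.05, per list the 3 members with the highest mean CPM and those at an unadjusted p under 0.05 where the symbol matched, and the 5 genes most like SALT. Compared by chi-square, each pair of libraries differed by far more than sampling noise (81.5 or more per degree of freedom).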

Additional observations from a re-analysis of the deposited data

How the results depend on the processing

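SALT was higher with carbon dots under all 15 alternatives, with log2 fold changes of 1.23 to 2.81 and adjusted p-values of 0.00273 to 1.00, and DESeq2 alone called it (2.24). The replicate block gave 2.07 (adjusted p = 0.759) and changed no call. The labels do not say whether CD and CK libraries of the same replicate number belong together. The deviations of CD and CK replicates correlated at -0.14 across genes, which cannot settle this. A crossed pairing, added after seeing the data, gave 2.07 with 0 genes called. Over all genes, edgeR without a filter called 29 and DESeq2 513, and the number at an unadjusted p under 0.05 (2286) was 880 to 4106 with 1 library left out. The 6 neighbours at an unadjusted p under 0.05 of 25 tested became 2 to 6 with 1 library left out, 8 of 25 with total count scaling (8.99% of all genes), 4 of 13 within 100 kb and 7 of 39 within 400 kb (30.8% and 18.0%, against 8.7% of all genes). The replicate block gave 4 of these 6, with 6.36% of all genes.

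The choice of most like genes kept 4 of 5 on log2(TPM + 1) and 0 of 5 by correlation or, added after seeing the data, with no limit on level. With 1 library left out, list medians were 1.58 to 3.37 (lectins, main value 2.42), 0.01 to 0.09 (jasmonate), -1.52 to -0.84 (leaf), -1.05 to -0.29 (root and meristem) and -0.11 to 0.57 (salt, drought and abscisic acid). The lectin list holds only SALT itself and LOC_Os12g14440, a gene of low level, so its median says nothing apart from SALT about other lectins. On log2(TPM + 1) the medians were 1.47 for lectins, 0.17 for jasmonate and -1.20 for leaf, on log2(TPM + 0.1) 0.17 for jasmonate and -1.20 for leaf, and with total count scaling -1.23 for leaf. Of 31 genes named by the rule for named genes, 25 kept their direction throughout. Genes named outside that rule, such as LEA3, RAB16B and CAB2R, were not in this count. LOC_Os01g24720 turned to 0.055 with total count scaling, 0.052 on log2(TPM + 1) and 0.059 on log2(TPM + 0.1), and ran from -0.189 to 0.067 with 1 library left out. LOC_Os01g24880 ran from -0.29 to 0.02. JAZ7 (LOC_Os07g42370) turned to 0.088 with total count scaling and 0.11 on both TPM scales, and ran from -0.133 to 0.12 with 1 library left out. In the same way JAZ6 (LOC_Os03g28940) ran from -0.33 to 0.501, NAC6 (LOC_Os01g66120) from -0.25 to 0.865 and DHN1 (LOC_Os02g44870) from -0.529 to 0.074. Where counts or medians moved, the cause was not tested.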

Other observations

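Some genes of the salt, drought and abscisic acid list were high in CD replicate 1 alone, unlike SALT, which was above both controls in both CD replicates. Of the 26 members tested, 15 had their highest CPM in CD replicate 1 (57.7%, against 29.3% of all genes tested). In the other treated library 0 had it, against 24.7% of all genes tested. The highest value lay in CK replicate 1 for 2 members (7.69%, against 26.3%) and in CK replicate 2 for 9 members (34.6%, against 19.7%). In 3 of them CD replicate 1 was more than 5-fold above each other library, a limit chosen after the values were seen (11.5%, against 0.198% of all genes tested). In the jasmonate list 10 of the 22 genes were highest in CD replicate 1 (45.5%, against 29.3% of all genes tested). CD replicate 2 was the highest for 5 of the 22 (22.7%, against 24.7%). Of these 22, 1 passed the 5-fold limit, LOX9 (4.55%, against 0.198%).

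The 3 genes of the salt, drought and abscisic acid list named here were chosen by that limit. LOC_Os11g26790, whose listed symbol could not be matched, had 56.5 CPM in the first treated library and 0.597 CPM in the other, with 0.309 and 1.80 CPM in control leaves, and its log2 fold change was 4.79 ± 2.04. RAB16B (LOC_Os11g26780), a dehydrin gene, had 3.17 CPM in the first treated library and 0.139 CPM in the other, with 0.116 and 0.325 CPM in control leaves. LEA3 (LOC_Os05g46480), a gene of a late embryogenesis abundant protein, had 3.08 CPM in the first treated library and 0 counts in the other, with 0.232 and 0.411 CPM in control leaves. All 3 had lower levels than SALT in each library, and none passed an adjusted p of 0.05 by edgeR.

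Related members had other patterns. RAB16C (LOC_Os11g26760), another dehydrin gene, had 1.19 and 0.995 CPM in treated leaves, against 0.643 and 0.411 CPM, so its groups did not overlap. LOC_Os01g50910, entered as a late embryogenesis abundant gene with no matched symbol, was highest in CK replicate 2, at 3.46 CPM, and had 2.23 and 0.796 CPM in treated leaves.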
